A study of Mus musculus with 15 samples.

Results

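Heme synthesis enzymes and the main iron uptake receptor were followed in the inguinal fat of C57BL/6 mice, a white adipose depot under the skin that can gain beige, heat-producing fat cells. The set was chosen by symbol and holds 9 of the 24015 genes in the count table: Alas1, Alas2, Alad, Uros, Urod, Cpox, Ppox, Fech and Tfrc. All 9 were among the 15288 genes with enough counts to be tested. The 15 RNA sequencing libraries come from 4 groups, and all mice had first spent 2 weeks at thermoneutrality. Young mice, 2 months old, received vehicle (Young_Ctrl, n = 4) or CL (Young_CL, n = 4) by intraperitoneal injection for 5 days. Aged mice, 12 months old, received vehicle (Old_Ctrl, n = 3, with no replicate 2 among the 15 libraries) or CL (Old_CL, n = 4). In the labels CL is spelled out as cardiolipin, whereas the same letters are the usual short name of a β3-adrenergic agonist. The compound is not settled here and is called CL. The labels do not tie each library to an animal of its own, so p-values speak of the spread among samples, which may be technical.

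Heme is an iron-porphyrin built by a chain of enzymes that starts in the mitochondrion, passes through the cytosol and ends in the mitochondrion. The first and rate-limiting step, the joining of glycine and succinyl-CoA, is carried by 1 of 2 synthases: Alas1 is used in all cells and is held down by heme itself, and Alas2 is used in developing red cells. Iron for the last step enters most cells as transferrin bound to the transferrin receptor, the product of Tfrc. In brown and beige adipocytes heme is carried by the cytochromes of the respiratory chain.

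Iron controls some of these transcripts through the iron-responsive element, a short hairpin in the RNA with the loop CAGTGN that is bound by iron regulatory proteins when iron is scarce. In a 5′ UTR the bound protein holds back translation, and in a 3′ UTR it protects the transcript from decay. The elements are shown because they set Alas2 and Tfrc, which are described below, apart from the other members. They were found in the GENCODE M21 transcripts of GRCm38 as a C, 5 bases, the loop CAGTGN and 5 bases able to pair with the first 5, G with T allowed. A match to this pattern anywhere in a transcript, coding sequence included, was present in 294 of 21877 genes (1.34%), and the count of genes with 4 or more was 1, Tfrc. Capitals mark the 6 bases of the loop.
Alas2, 5′ UTR, transcript bases 86 to 113, across an exon junction on chromosome X between 150547460 and 150552150, plus strand: ggttcgtcctCAGTGCagggcaacagga
Tfrc, 3′ UTR, chr16:32631221-32631248, plus strand: ttatcggaagCAGTGCcttccataatta
Tfrc, 3′ UTR, chr16:32631600-32631627, plus strand: ttatcgggagCAGTGTcttccataatgc
Tfrc, 3′ UTR, chr16:32631665-32631692, plus strand: atatcggagaCAGTGAtctccatatgtt
Tfrc, 3′ UTR, chr16:32631712-32631739, plus strand: ttatcgggaaCAGTGTttcccataattt
Fth1, ferritin heavy chain, 5′ UTR, chr19:9982734-9982761, plus strand: cctgcttcaaCAGTGCttgaacggaacc
Ftl1, ferritin light chain, 5′ UTR, chr7:45459778-45459805, minus strand: cttgcttcaaCAGTGTttgaacggaaca
The ferritin genes encode the cell's iron store and are not members of the set; their elements are printed for comparison. The same search gave no UTR match in the other 7 members, which says only that these letters are not in their annotated UTRs. Matches in coding sequence were not kept for single genes.

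The promoters of the synthases differ as well. Windows from 250 bases before to 50 bases after each start were taken from RefSeq (GRCm38.p6), which matched 8 of the 9 members. The Alas1 window held the motif of NRF1 (GCGCA followed by TGCGC), a factor of genes for mitochondrial proteins, which occurred in 0.971% of 32851 windows of 300 bases. The Alas2 window held AGATAA, the letters bound by erythroid GATA factors (11.2% of windows), and CCACCC, bound by Klf1 and its relatives (31.5%). Both strands were searched; the AGATAA match is on the reverse strand and reads TTATCT here, and 3 reverse matches to CCACCC overlap by 1 base each. Among members, NRF1 letters were found in windows of Alas1, AGATAA in those of Alas2 and Cpox, and CCACCC in those of Alas1, Alas2 and Tfrc. Capitals mark the motif letters in the sequences of the 2 synthases.
Alas1, chr9:106247907-106247936, minus strand, 19 to 48 bases after the start: ccgcacccaagGCGCATGCGCggcggtcac
Alas2, chrX:150547307-150547406, plus strand, 110 to 11 bases before the start: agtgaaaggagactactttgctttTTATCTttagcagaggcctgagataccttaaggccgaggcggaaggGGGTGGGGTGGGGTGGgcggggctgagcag

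Total counts per library ran from 6115542 to 51577001. The 10 adipocyte markers listed to check the tissue were all expressed, and Ucp1, the proton carrier of beige and brown fat, rose with CL at both ages (log2 change 5.04 by edgeR in young and 4.54 in aged mice, adjusted p = 8.44e-07 and 2.31e-05). Skeletal muscle transcripts were abundant in Young_CL 1, 2 and 3, Old_Ctrl 3 and Old_CL 3. Old_CL 1, 2 and 4 lay closer together than all other pairs of replicates (robust SD of log2 ratios at most 0.0933, against 0.116 to 0.747). They differed beyond sampling noise (chi-square per degree of freedom 2.69 to 4.99) and were kept as 3 samples. In whole tissue, fewer cells of a type and less RNA per cell cannot be told apart.

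In young vehicle tissue the levels of the 9 genes, as mean CPM per kilobase of exon (CPM, counts scaled to library size), ran in the order Alas1 (58.0), Alad (38.4), Urod (25.3), Ppox (23.1), Tfrc (10.6), Fech (8.48), Uros (7.64), Cpox (5.63) and Alas2 (2.80). Neighbours from Urod to Ppox and from Tfrc to Uros differed by less than the spread of their libraries. In aged CL tissue the order was Alas1 (149), Alad (77.7), Urod (55.0), Ppox (25.5), Fech (19.4), Alas2 (12.1), Uros (11.9), Tfrc (8.003) and Cpox (4.91), with Alas2 and Uros indistinguishable.

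**Figure D1:**
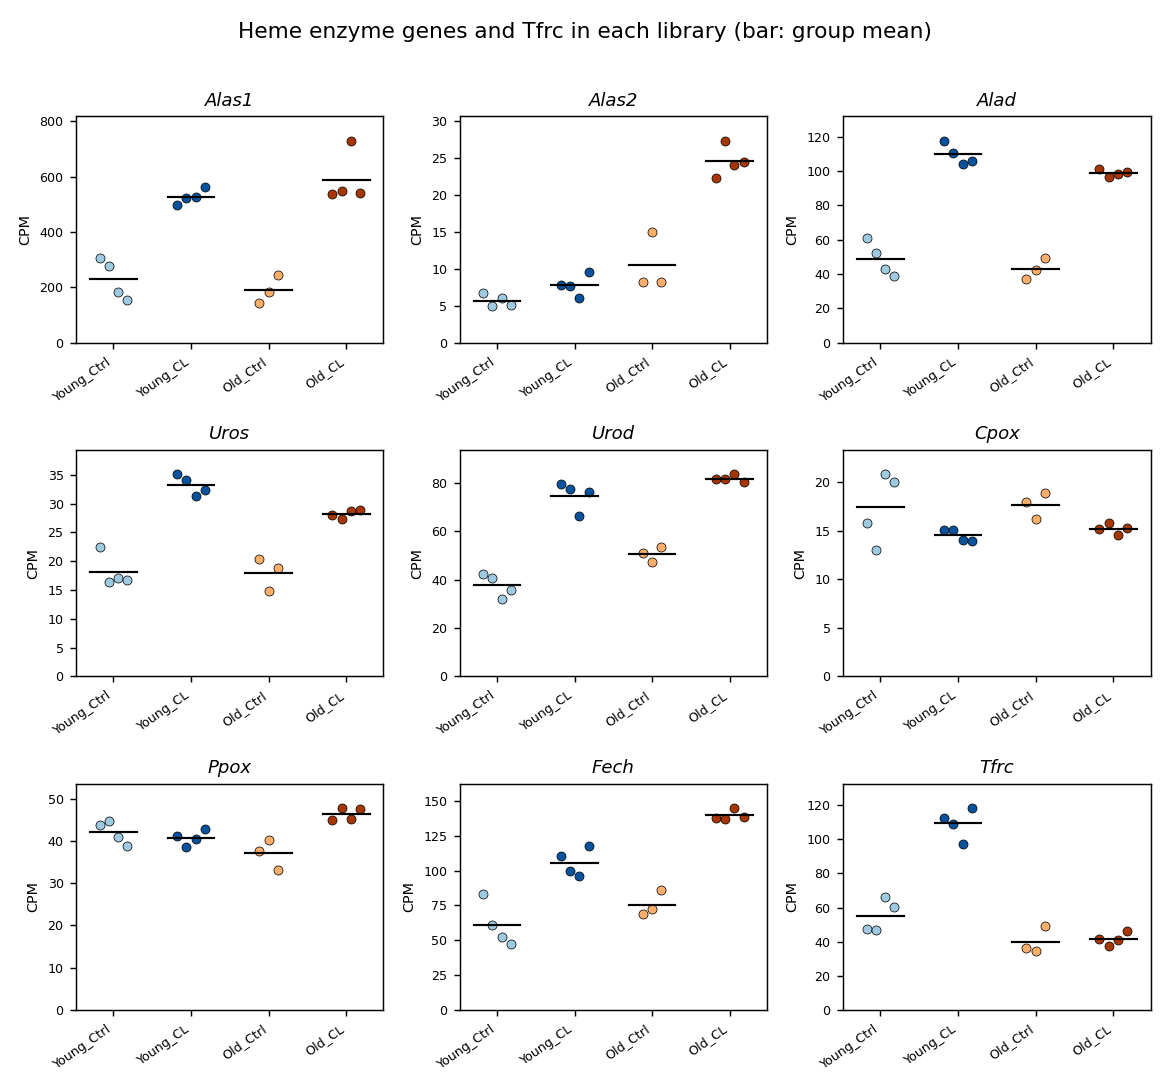
CPM of each of the 9 genes (linear axis from 0), 1 dot per library for 15 libraries in 4 groups; bars are group means, with n = 3 in Old_Ctrl and n = 4 in the others. Tfrc is high in the 4 Young_CL libraries (97.2 to 118 CPM), and Alas2 in the 4 Old_CL libraries (22.3 to 27.4 CPM).

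CL against vehicle in young mice asks what the treatment does to these genes at 2 months. The synthase Alas1, the cytosolic enzymes Alad, Uros and Urod, the last enzyme Fech and the receptor gene Tfrc rose. Cpox, Ppox and Alas2 did not pass the test. Of the 9 genes, 6 were higher and 0 lower at an edgeR adjusted p under 0.05, where 43.9% of all tested genes were called, 21.7% higher and 22.1% lower. The median log2 change was 0.88 over the 9 genes and -0.07 over all tested genes.

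Alas1 stood at 306, 277, 182 and 154 CPM in Young_Ctrl 1, 2, 3 and 4 and at 496, 522, 527 and 562 CPM in Young_CL 1, 2, 3 and 4. The groups did not overlap, and the CL libraries lay closer together than the vehicle libraries. The mean rose 2.29-fold, from 229.7 ± 73.4 to 527 ± 27.0 CPM (SD, n = 4 and 4, log2 change 1.198 by edgeR, SE 0.21, adjusted p = 3.38e-04). The adipocyte marker score, a mean log2 CPM, was 10.93, 10.21, 9.75 and 9.52 in Young_Ctrl 1 to 4, the same order as that of Alas1, and lay between 10.75 and 10.84 in Young_CL. The highest Alas1 level of the group, 562 CPM, was in Young_CL 4, where muscle transcripts were few.

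Alad, which condenses aminolevulinic acid into the pyrrole porphobilinogen, stood at 60.7, 52.4, 43.2 and 38.7 CPM in vehicle and at 118, 111, 104 and 106 CPM in CL libraries. It rose 2.26-fold with no overlap (log2 change 1.18 by edgeR, SE 0.12, adjusted p = 2.63e-06). Uros, which closes the porphyrin ring, stood at 22.5, 16.4, 17.1 and 16.7 CPM against 35.1, 34.1, 31.3 and 32.3 CPM. Its groups were apart (log2 change 0.88 by edgeR, SE 0.11, adjusted p = 2.17e-05). Urod, which trims the side chains of the ring and is the last cytosolic enzyme, stood at 42.2, 40.8, 31.8 and 35.8 CPM against 79.5, 77.4, 66.3 and 76.2 CPM (log2 change 0.9967 by edgeR, SE 0.09, adjusted p = 8.12e-07). No Urod vehicle library reached a CL library.

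The 3 mitochondrial enzymes of the last steps did not move together. Cpox, which oxidises coproporphyrinogen, stood at 15.8, 13.1, 20.8 and 20.1 CPM in vehicle and 15.1, 15.1, 14.1 and 14.0 CPM in CL libraries. These overlap (log2 change -0.26 by edgeR, SE 0.13, adjusted p = 0.106). Ppox, which makes protoporphyrin, stood at 43.9, 44.8, 41.0 and 38.9 CPM against 41.3, 38.6, 40.4 and 43.0 CPM. The interval of its log2 change ran from -0.20 to 0.11 (95%, adjusted p = 0.661). Fech, the ferrochelatase that inserts iron, stood at 83.2, 61.3, 52.6 and 47.1 CPM against 110.4, 99.5, 95.9 and 118 CPM and rose with no overlap (log2 change 0.80 by edgeR, SE 0.14, adjusted p = 4.02e-04).

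Tfrc stood at 47.6, 47.0, 66.4 and 60.1 CPM in vehicle and at 113, 109, 97.2 and 118 CPM in CL libraries of young mice. The groups were apart, and the mean rose 1.97-fold (log2 change 0.98 by edgeR, SE 0.13, adjusted p = 2.96e-05). Alas2 stood at 6.71, 4.98, 6.01 and 5.12 CPM against 7.79, 7.68, 6.13 and 9.53 CPM, from 37 to 222 counts per library. The groups overlap at 1 CL library (log2 change 0.47 by edgeR, SE 0.20, adjusted p = 0.0619).

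With a covariate for B cell and lymph node transcripts Alas1 (0.71, edgeR adjusted p = 0.0679) and Fech (0.53, edgeR adjusted p = 0.0703) were no longer called. That score was 6.95 to 7.44 in Young_Ctrl and 6.18 to 6.73 in Young_CL, so this fit compares no libraries of equal score. With the adipocyte score as a covariate the change of Alas1 was 0.70 and that of Fech 0.43, both called (edgeR adjusted p = 0.00608 and 0.00352); Cpox passed without Young_Ctrl 2 (-0.38, edgeR adjusted p = 0.0119) and with upper-quartile scaling (-0.35, edgeR adjusted p = 0.0312), Alas2 without Young_Ctrl 1 (0.55, edgeR adjusted p = 0.0397) and, in a fit whose only young CL library is Young_CL 4, the one with the highest Alas2, without the muscle-rich libraries (0.74, edgeR adjusted p = 0.0232).

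CL against vehicle in aged mice asks the same at 12 months. Alas1, Alad, Uros, Urod and Fech rose again, and Alas2 and Ppox rose with them. Tfrc and Cpox did not pass the test. Of the 9 genes 7 were higher and 0 lower, where 45.2% of tested genes were called, 23.1% higher and 22.2% lower. The median log2 change was 0.70 over the 9 genes and -0.01 over all tested genes.

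Alas1 stood at 143, 185 and 246 CPM in Old_Ctrl 1, 3 and 4 and at 537, 548, 729 and 539 CPM in Old_CL 1, 2, 3 and 4. The highest level, 729 CPM, was in the muscle-rich library Old_CL 3. The lowest CL library was far above the highest vehicle library, and the mean rose 3.07-fold, from 191 ± 51.7 to 588 ± 94.1 CPM (SD, n = 3 and 4, log2 change 1.62 by edgeR, SE 0.23, adjusted p = 9.42e-05). Alad stood at 37.0, 42.2 and 49.5 CPM against 101, 96.6, 98.1 and 99.3 CPM (log2 change 1.195 by edgeR, SE 0.14, adjusted p = 1.93e-05). Its groups were apart by a gap several times their spread.

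Uros stood at 20.5, 14.8 and 18.8 CPM against 28.0, 27.3, 28.8 and 29.0 CPM (log2 change 0.66 by edgeR, SE 0.12, adjusted p = 5.79e-04). Urod stood at 50.8, 47.1 and 53.5 CPM against 81.7, 81.6, 83.6 and 80.4 CPM (log2 change 0.70 by edgeR, SE 0.10, adjusted p = 9.45e-05). Both cytosolic enzymes had no overlap. Fech stood at 68.6, 72.2 and 86.4 CPM against 138, 137, 145 and 139 CPM (log2 change 0.88 by edgeR, SE 0.15, adjusted p = 4.06e-04). Its 4 CL libraries were the highest Fech levels of the series. Ppox stood at 37.7, 40.2 and 33.2 CPM against 45.1, 47.9, 45.2 and 47.5 CPM, a smaller rise with no overlap (log2 change 0.32 by edgeR, SE 0.08, adjusted p = 0.00546).

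Cpox stood at 18.004, 16.2 and 18.9 CPM in aged vehicle and 15.2, 15.8, 14.6 and 15.3 CPM in aged CL libraries. All CL libraries were lower, but the change did not pass (log2 change -0.22 by edgeR, SE 0.14, adjusted p = 0.198). Tfrc stood at 36.3, 34.8 and 49.1 CPM against 41.7, 37.5, 41.1 and 46.0 CPM. These overlap fully, and the interval of the log2 change ran from -0.23 to 0.33 (95%, edgeR adjusted p = 0.795).

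With the adipocyte score as a covariate the aged CL change was 0.40 for Uros, 0.28 for Ppox and 0.34 for Fech (edgeR adjusted p = 0.0939, 0.138 and 0.0537), none called, and that of Alas1 was 0.89, called (edgeR adjusted p = 0.00815). The score was 10.50 to 11.01 in Old_Ctrl and 11.58 to 11.69 in Old_CL, so this fit compares no libraries of equal score. With the cell cycle score as a covariate 3 of the 9 genes were called, where 1192 of the 15288 tested genes were called. With the globin score 4 of the 9 were called, where 1728 of the 15288 were. In the main fit 6916 of the 15288 were called. Neither score overlapped between Old_Ctrl and Old_CL. Both covariates were added after seeing the data, and the part of these scores in the results was not tested.

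**Figure D2:**
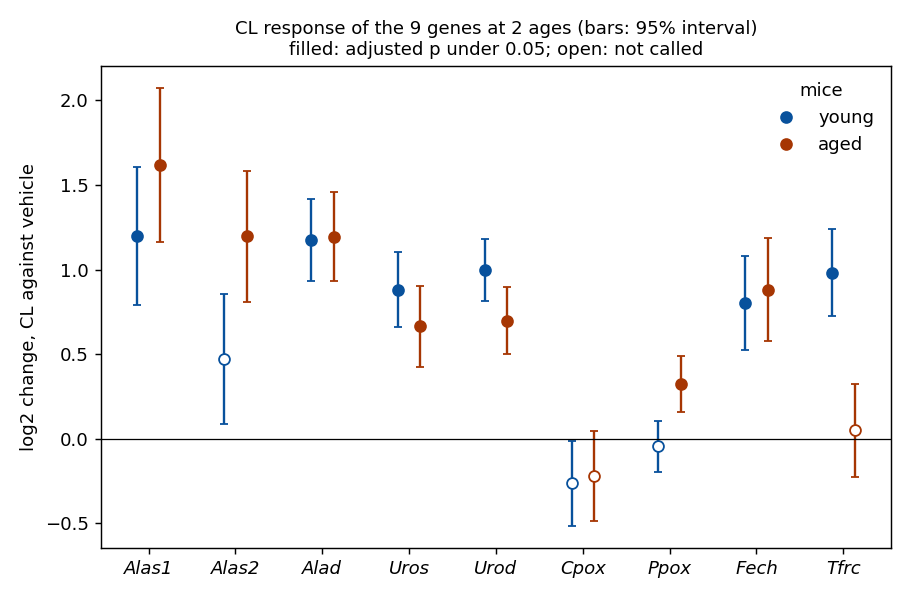
Log2 change with CL against vehicle for each of the 9 genes in young and aged mice, with 95% intervals; filled dots have an edgeR adjusted p under 0.05 and open dots do not. Tfrc is at 0.98 in young and 0.05 in aged mice, while Alad is at 1.18 and 1.195.

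The age by CL interaction asks whether the response to CL differed with age. Of the 9 genes 0 were higher and 1 was lower, Tfrc, where 7.08% of tested genes were called, 3.31% higher and 3.77% lower. The young response of Tfrc, 0.98, and the aged response, 0.05, differed by -0.93 on the log2 scale (SE 0.19, interval -1.31 to -0.56, edgeR adjusted p = 0.0116). The call held with each of the 15 libraries left out in turn (-1.03 to -0.75, edgeR adjusted p = 0.00785 to 0.0393). It was lost with Old_CL 1, 2 and 4 summed to 1 library (-0.93, edgeR adjusted p = 0.0695) and without the 5 muscle-rich libraries, which leaves 1 Young_CL library (-1.13, edgeR adjusted p = 0.0973).

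The responses of Alad at the 2 ages, 1.18 and 1.195, differed by 0.02. Ppox (0.37, interval 0.15 to 0.59, edgeR adjusted p = 0.0606) and Alas2 (0.72, interval 0.18 to 1.26, edgeR adjusted p = 0.113) had the smallest adjusted p of the members that were not called. Alas2 was called without Old_Ctrl 3 (1.10, edgeR adjusted p = 0.00925), and Ppox without Young_Ctrl 4, Young_CL 4 or Old_Ctrl 3 (edgeR adjusted p = 0.0369 to 0.0462) and by DESeq2 (0.35, adjusted p = 0.0382). For Alas1 the difference was 0.42 (interval -0.17 to 1.01, edgeR adjusted p = 0.389).

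Aged against young tissue was compared under each treatment. These comparisons share their libraries with the CL comparisons above and are not independent of them. Under vehicle Alas2 and Urod were higher in aged tissue and Tfrc was lower. That is 2 higher and 1 lower of 9, where 27.2% of tested genes were called, 15.1% higher and 12.2% lower, so the members' share is close to the background. That background is itself unsteady: leaving out 1 library moved the called genes from 4162 to between 1739 (without Old_Ctrl 4) and 5851 (without Young_Ctrl 1), past 1.5 times also without Young_Ctrl 3 or 4 (2450 and 2606), with 2 to 4 members called. Under CL Alas2 and Fech were higher and Tfrc lower, again 2 and 1 of 9, where 40.0% of tested genes were called, 20.5% higher and 19.4% lower. The median log2 differences of the 9 genes were -0.02 under vehicle and 0.13 under CL, against 0.03 and -0.01 over all tested genes.

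Tfrc had the largest fall with age of the 9 genes under CL, from 109 ± 8.99 CPM at 2 months to 41.6 ± 3.50 CPM at 12 months (SD, n = 4 and 4). The lowest young library, 97.2 CPM, was above the highest aged library, 46.0 CPM, with a wide gap (log2 difference -1.40 by edgeR, SE 0.13, adjusted p = 2.72e-06). Under vehicle it went from 55.3 ± 9.57 to 40.1 ± 7.86 CPM (SD, n = 4 and 3, log2 difference -0.46 by edgeR, SE 0.14, adjusted p = 0.0261), and the groups overlapped. That call was lost without Young_Ctrl 3, Young_Ctrl 4, Old_Ctrl 1 or Old_Ctrl 3 (edgeR adjusted p = 0.0673 to 0.103).

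Cell cycle markers were set beside Tfrc, a gene that dividing cells use. Both were lower in aged than young tissue under CL. For the age by CL interaction, where Tfrc was lower, 5 of 10 markers were lower and 0 higher (median -0.82). Of all tested genes 3.77% were lower and 3.31% higher there. Within each CL comparison Tfrc and the markers did not follow each other. Of 10 markers 2 rose and 1 fell with CL in young tissue, where 21.7% of tested genes rose and 22.1% fell. In aged tissue 7 fell with CL, where 22.2% of tested genes fell. Under CL 9 were lower in aged than young tissue, where 19.4% of tested genes were lower. Their mean log2 CPM was 4.05 ± 0.26 in Young_Ctrl, 4.21 ± 0.10 in Young_CL, 3.85 ± 0.28 for Old_Ctrl and 3.23 ± 0.13 for Old_CL (SD, n = 4, 4, 3 and 4). Between Old_Ctrl and Old_CL this score fell with no overlap while Tfrc stayed within the spread of its libraries. With the score as a covariate, added after seeing the data, the Tfrc difference was -0.60 for the interaction (edgeR adjusted p = 0.267) and -0.96 for age under CL (edgeR adjusted p = 0.0989). The score was 4.11 to 4.325 in Young_CL and 3.13 to 3.42 in Old_CL, so the fit by age under CL compares no libraries of equal score. Of all tested genes it called 364 by age under CL and 204 for the interaction, against 6108 and 1083 in the main fit. The part of the cell cycle score in the Tfrc result was not tested beyond this fit.

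**Figure D3:**
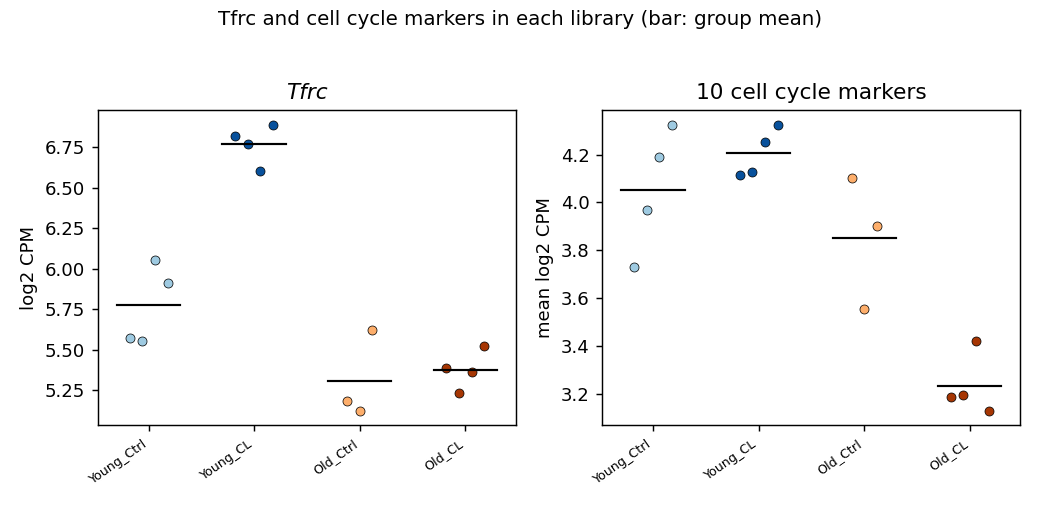
Log2 CPM of Tfrc (left) and the mean log2 CPM of 10 cell cycle markers (right), 1 dot per library for 15 libraries; bars are group means. Tfrc is highest in Young_CL, whereas the cell cycle score has close means in Young_Ctrl and Young_CL (4.05 and 4.21) and is lowest in Old_CL (3.23).

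Urod and Fech had smaller age differences. Urod was 37.7 ± 4.76 CPM in young and 50.5 ± 3.17 CPM in aged vehicle tissue (SD, n = 4 and 3) with no overlap (log2 difference 0.43 by edgeR, SE 0.10, adjusted p = 0.00712). It was not called when the vehicle groups were fitted alone (edgeR adjusted p = 0.0502) or with the B cell score as a covariate (0.18, edgeR adjusted p = 0.759). That score did not overlap between Young_Ctrl (6.95 to 7.44) and Old_Ctrl (5.39 to 6.43), and the fit called 20 of all tested genes there. Under CL Fech was at 106 ± 9.96 CPM in young and 139.6 ± 3.74 CPM in aged tissue (SD, n = 4 and 4), also with no overlap (log2 difference 0.40 by edgeR, SE 0.14, adjusted p = 0.0331). Its call was lost in 7 of the 8 fits that left out 1 library of those groups, with the highest edgeR adjusted p at 0.0885. The Fech difference changed sign with the adipocyte score as a covariate, and with the cell cycle score, which was added after seeing the data. Alas1 differed by -0.26 under vehicle (edgeR adjusted p = 0.397) and 0.16 under CL (edgeR adjusted p = 0.558). With the adipocyte score as a covariate Alas1 (-0.70, edgeR adjusted p = 0.012) and Alad (-0.45, edgeR adjusted p = 0.00737) were lower in aged vehicle tissue, and Alad (-0.56, edgeR adjusted p = 8.6e-04) and Uros (-0.47, edgeR adjusted p = 0.026) in aged CL tissue. The score was 10.75 to 10.84 in Young_CL and 11.58 to 11.69 in Old_CL. These ranges do not meet, so the fit under CL compares no libraries of equal score, and the same holds for the cell cycle score. Of the 10 markers in the adipocyte score, 6 were themselves higher with age under CL, where 20.5% of tested genes were higher. Under vehicle 2 of the 10 were higher, close to the 15.1% of tested genes.

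Alas2, the red cell synthase, was set beside Alas1 in each library. Alas2 stood at 8.21, 14.996 and 8.24 CPM in Old_Ctrl 1, 3 and 4 and at 22.3, 27.4, 24.1 and 24.5 CPM in Old_CL 1, 2, 3 and 4, from 57 to 837 counts per library. It was higher in aged than in young tissue in each library of both treatments. The edgeR log2 differences by age were 0.92 under vehicle (SE 0.20, adjusted p = 0.00526) and 1.64 under CL (SE 0.19, adjusted p = 1.36e-05), and the aged CL change was 1.196 (SE 0.20, adjusted p = 2.66e-04). Old_Ctrl 3, a muscle-rich library, is the highest of its group, and without it the age difference under vehicle was 0.54 (edgeR adjusted p = 0.0326).

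The count of Alas2 per 100 counts of Alas1 was 2.19, 1.80, 3.31 and 3.33 in Young_Ctrl and 1.57, 1.47, 1.16 and 1.70 in Young_CL. It was 5.73, 8.125 and 3.35 in Old_Ctrl and 4.15, 4.996, 3.31 and 4.54 in Old_CL. Alas1 counts far exceeded Alas2 counts in every library. The ratio was lower after CL in young tissue and higher in aged than young tissue. On the log2 scale the differences were -0.81 for young CL, 1.07 between ages under vehicle and 1.52 between ages under CL, each with p = 0.0286 by an exact two-sided permutation test, the smallest these group sizes allow (adjusted p = 0.0381 over the 4 comparisons). The aged CL difference was -0.36 (exact two-sided permutation p = 0.343). It was 0.05 without the 5 muscle-rich libraries and -0.06 to -0.70 with 1 library left out.

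Alpha globin transcripts moved with Alas2, and other red cell markers did not all do so. Hba-a1, alpha globin, was 89.7 ± 22.2 CPM in Young_Ctrl, 120.4 ± 23.2 in Young_CL, 163 ± 60.9 for Old_Ctrl and 299.6 ± 33.2 for Old_CL (SD, n = 4, 4, 3 and 4). It rose with CL in aged tissue by 0.87 (edgeR adjusted p = 0.00695) and was higher in aged tissue by 0.87 under vehicle (edgeR adjusted p = 0.0122) and 1.31 under CL (edgeR adjusted p = 2.97e-04). Hba-a1 and Hba-a2 have equal counts in every library and are 1 measurement. Hbb-b1, beta globin, was 87.1 ± 14.5 CPM in Young_Ctrl, 113 ± 25.9 in Young_CL, 120 ± 61.2 in Old_Ctrl and 239 ± 21.6 in Old_CL (SD). Between ages its libraries overlapped under vehicle (67.6 to 98.3 CPM in Young_Ctrl, 68.8 to 188 in Old_Ctrl) and were apart under CL. Of 18 erythrocyte markers 17 were in the table and 11 were tested, 8 of them distinct measurements. Of these 8, 3 were higher and 2 lower with CL in aged tissue, where 23.1% of tested genes were higher and 22.2% lower. By age under CL 6 were higher and 2 lower, where 20.5% of tested genes were higher and 19.4% lower. By age under vehicle 2 were higher and 0 lower, where 15.1% were higher and 12.2% lower. The shares that were lower under CL are close to those of all tested genes. With equal rows counted once, the summed CPM of the markers was 171 to 245 in Young_Ctrl, 208 to 326 in Young_CL, 224 to 490 in Old_Ctrl and 577 to 705 in Old_CL, mostly globin. The markers that fell with CL in aged tissue were Ermap, a red cell membrane protein gene, from 1.14 ± 0.272 to 0.360 ± 0.267 CPM (SD, n = 3 and 4, edgeR adjusted p = 0.00584) and the erythroid factor gene Gata1 from 0.872 ± 0.403 to 0.317 ± 0.111 CPM (SD, n = 3 and 4, edgeR adjusted p = 0.0192). Among genes that define red cell precursors, the Rh-associated gene Rhag had 0 to 2 counts per library and the erythroid factor gene Klf1 0 to 17.

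With the mean log2 CPM of the 3 distinct globin measurements as a covariate, added after seeing the data, the Alas2 differences were 0.61 for aged CL (edgeR adjusted p = 0.0728), 0.45 between ages under vehicle (edgeR adjusted p = 0.12) and 0.90 between ages under CL (edgeR adjusted p = 0.0302). The difference under vehicle was not called with the erythrocyte covariate either (0.50, edgeR adjusted p = 0.087) or with that for B cells (1.33, edgeR adjusted p = 0.201). The B cell score was 6.95 to 7.44 in Young_Ctrl and 5.39 to 6.43 in Old_Ctrl. That fit compares no vehicle libraries of equal score and called 20 of all tested genes by age under vehicle. With the cell cycle covariate the differences for aged CL (0.76, edgeR adjusted p = 0.0873) and between ages under CL (0.87, edgeR adjusted p = 0.284) were not called. The cell cycle scores of the compared groups did not overlap either. The exons of Alas2 overlap Apex2, a DNA repair gene on the opposite strand, over 311 bases, and as the strand setting of the counts is not given, reads there cannot be told apart. Apex2 rose with CL by 0.84 in young and 0.83 in aged tissue (edgeR adjusted p = 4.33e-05 and 1.38e-04) and differed by -0.11 and -0.12 with age (edgeR adjusted p = 0.549 and 0.428). Alas2 exons also overlap the opposite-strand gene Mir3620 over 61 bases, and Alas1 exons an antisense RNA over 465 bases, 4930500F10Rik.

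**Figure D4:**
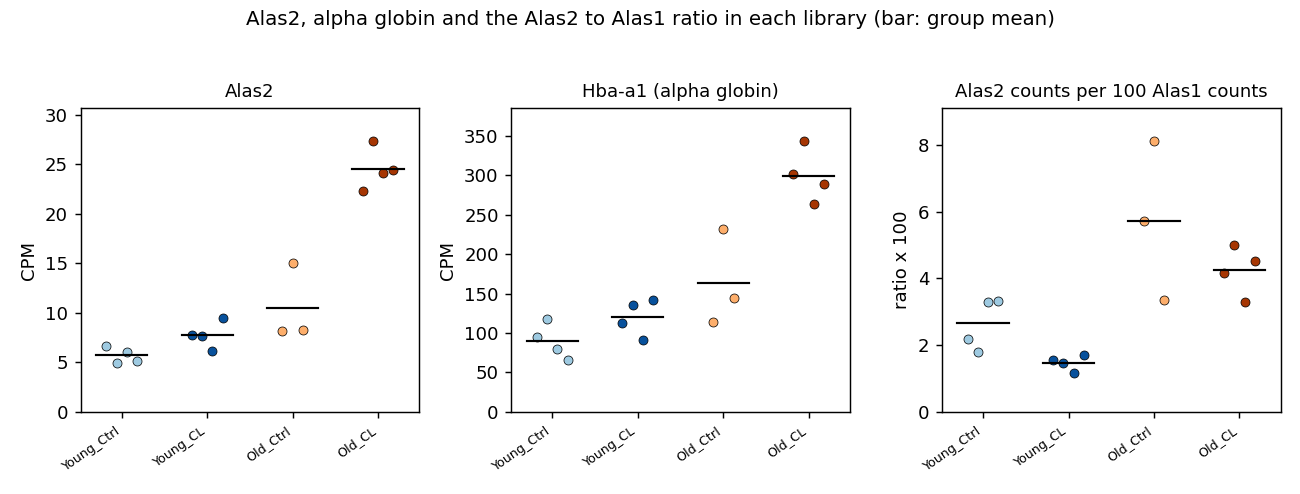
CPM of Alas2 (left), CPM of Hba-a1 (middle) and Alas2 counts per 100 Alas1 counts (right), 1 dot per library for 15 libraries; bars are group means and all axes start at 0. Alas2 and Hba-a1 are highest in Old_CL, where the ratio (3.31 to 4.996) lies within the range of Old_Ctrl (3.35 to 8.125), except for its lowest library.

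Other genes of heme and iron handling were taken from 5 lists, whose counts stand against the shares of all tested genes called: 43.9% for young CL, 45.2% for aged CL, 27.2% by age under vehicle and 40.0% by age under CL. Heme transport and control genes mostly rose with CL: of 13, 7 rose and 0 fell in young tissue (median log2 change 0.60) and 8 rose and 1 fell in aged tissue (0.67). Abcb10, an inner-membrane transporter that erythroid heme synthesis relies on, rose by 1.04 and 1.09, and the protease genes Lonp1 (1.17 and 1.01) and Clpx (1.02 and 0.78), whose products act on the ALAS enzymes, rose as well (edgeR adjusted p from 4.4e-06 to 2.21e-04). Tmem14c, a carrier of protoporphyrinogen, rose by 1.52 in young tissue (edgeR adjusted p = 1.82e-07), and its response differed between ages by -0.93 (edgeR adjusted p = 0.00782). The coactivator gene Ppargc1a, which drives Alas1 in liver, rose by 1.296 and 1.24 (edgeR adjusted p = 4.27e-04 and 0.00122).

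Most heme users and genes that mature heme a and c rose at both ages. Of 11, 9 rose and 0 fell in young tissue (median 1.58) and 9 rose and 1 fell, Cygb, in aged tissue (1.03), while under CL 3 were higher and 6 lower in aged than young tissue (-0.41). Cytochrome c1, Cyc1, rose from 147 ± 35.9 to 787 ± 85.8 CPM in young (log2 change 2.42 by edgeR, SE 0.16, adjusted p = 4.8e-08) and from 157 ± 19.1 to 553 ± 43.5 CPM in aged tissue (1.81, SE 0.17, adjusted p = 6.9e-06). It stood at 830 CPM in Young_CL 4, which has few muscle transcripts, and at 618 CPM, the highest level of Old_CL, in the muscle-rich Old_CL 3. Cycs, cytochrome c, rose by 2.71 and 1.89, and Sdhd, a heme-anchoring subunit of complex II, by 2.12 and 1.03; the response of Sdhd differed with age by -1.09 (edgeR adjusted p = 0.00462).

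Heme breakdown followed another pattern. Hmox1, the inducible heme oxygenase, was 47.0 ± 9.12 CPM in Young_Ctrl, 66.5 ± 12.3 in Young_CL, 122 ± 57.8 for Old_Ctrl and 64.9 ± 11.7 for Old_CL (SD, n = 4, 4, 3 and 4). It was higher with age under vehicle by 1.37 (edgeR adjusted p = 0.00273) and fell with CL in aged tissue by 0.90 on the log2 scale (edgeR adjusted p = 0.0116), and the CL response differed with age by -1.40 (edgeR adjusted p = 0.0308). The aged groups overlapped, at 67.9 to 183 CPM in Old_Ctrl and 58.7 to 82.4 CPM in Old_CL. Hmox2, Blvra and Blvrb, the constitutive oxygenase and the biliverdin reductases, rose in young tissue by 0.37, 0.61 and 0.59 (edgeR adjusted p = 0.00915, 0.0134 and 0.00336). Macrophages, which degrade heme, are marked by 10 genes of which 7 were higher with age under vehicle, where 15.1% of tested genes were higher. With CL in aged tissue 5 of the 10 fell, where 22.2% of tested genes fell. The summed level of the 10 was 807 to 1133 CPM in Young_Ctrl, 468 to 1160 in Young_CL, 1605 to 2960 in Old_Ctrl and 1007 to 1471 in Old_CL. The part of macrophages in the Hmox1 result was not tested.

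Iron transport and storage genes split. Of 15, 6 rose and 4 fell with CL in young and 4 rose and 3 fell in aged tissue, with medians of 0.03 and 0.01; with age 7 were higher and 1 lower under vehicle (0.50) and 5 and 1 under CL (0.39). The shares called with CL in aged tissue and by age under CL are close to those of all tested genes. Tfr2, the second transferrin receptor, rose with CL by 3.04 in young and 2.67 in aged tissue (edgeR adjusted p = 1.08e-04 and 3.81e-04), from 2.65 ± 1.998 to 19.5 ± 8.21 and from 5.16 ± 2.21 to 31.9 ± 2.58 CPM (SD, n = 4, 4, 3 and 4), and Hfe, its partner in iron sensing, by 1.15 and 1.19. The ferritin genes Fth1 and Ftl1 were higher with age under vehicle by 0.98 and 1.10 (edgeR adjusted p = 0.00174 and 0.00374), as was transferrin, Trf, by 0.98 (edgeR adjusted p = 0.00407). With CL in aged tissue Fth1 did not pass (-0.11, edgeR adjusted p = 0.64) and Ftl1 fell by 0.91 on the log2 scale (edgeR adjusted p = 0.00453). Heph, a ferroxidase of iron export, rose in aged tissue from 68.2 ± 16.8 to 153.9 ± 9.97 CPM (log2 change 1.17 by edgeR, SE 0.18, adjusted p = 1.95e-04), and its response differed with age by 1.28 (edgeR adjusted p = 0.009).

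Iron sensing and iron-sulfur assembly genes rose with CL, 9 of 12 in young (median 0.92) and 8 of 12 in aged tissue (0.71), with 0 falling at either age. The chaperone gene Hspa9 rose by 1.68 and 1.03, the glutaredoxin gene Glrx5 by 1.502 and 0.86 and the scaffold gene Iscu by 1.003 and 0.75 (edgeR adjusted p from 3.89e-07 to 6.62e-04). In aged against young CL tissue 2 of these genes were higher and 4 lower.

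**Figure D5:**
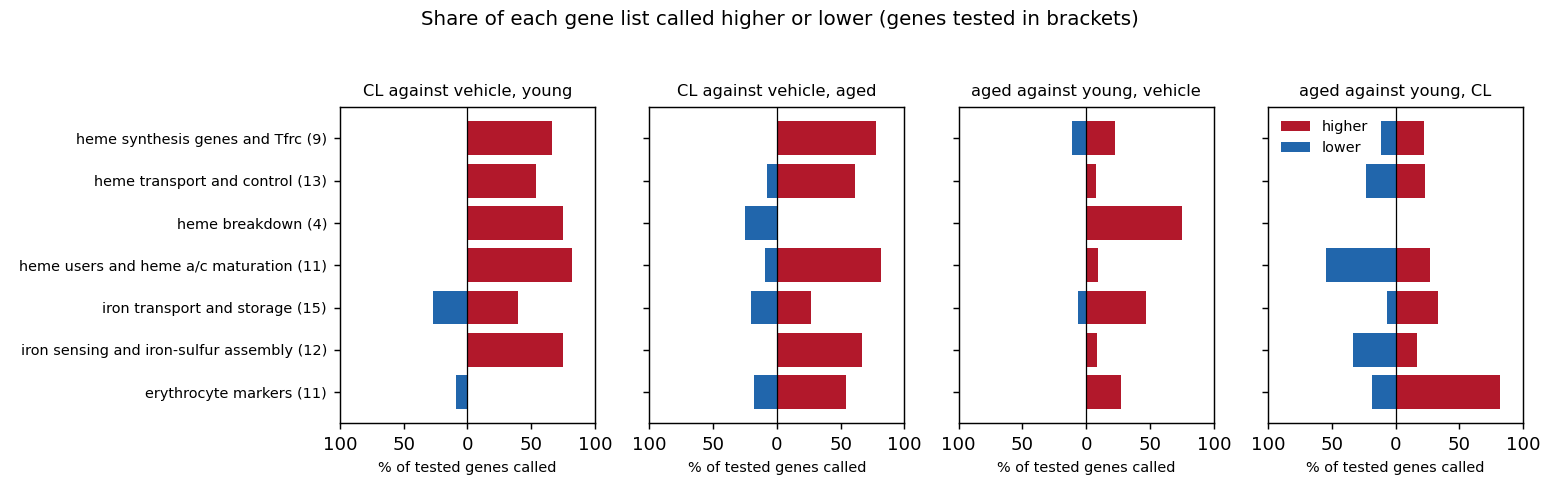
Percent of the tested genes of each list called higher (red, right) or lower (blue, left) at an edgeR adjusted p under 0.05 in 4 comparisons; the number tested stands in brackets, and the 11 erythrocyte genes are 8 distinct measurements. The 9 heme synthesis and uptake genes have 6 and 7 called higher with CL in young and aged tissue, and 2 higher and 1 lower in both age comparisons.

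The genes whose levels over the 15 libraries lay closest to those of a member were found by the root mean square difference of centred log2 CPM, among 10372 genes, as a description. For Alas1 these were Echdc3 (0.18), Uck1 (0.18), Aldh4a1 (0.19), Msrb2 (0.19) and Acbd4 (0.19), where the median gene was at 0.80. For Alas2 they were Svep1 (0.25), Hba-a1 with Hba-a2 (0.26), Dmxl2 (0.30) and Gpc1 (0.31), against a median of 0.86. For Tfrc they were the sterol synthesis genes Sqle (0.24) and Msmo1 (0.24), then Cox11 (0.26), Haus3 (0.26) and Pdk1 (0.26), against 0.68.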

How the data were processed

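PolyA RNA libraries of inguinal fat were analysed from the gene counts as deposited by the authors, 1 table of whole-number counts for 24015 genes and 15 libraries. STAR alignment to mm9 and counting with featureCounts of Subread are listed, per the submitters' processing notes; versions, annotation and strand setting are not given in the sources used here. Genes were filtered with filterByExpr of edgeR 4.0.16 by group (R 4.3.3), which left 15288, and TMM factors scaled the libraries. The test was the robust quasi-likelihood F test, 1 mean per group and all 15 libraries in the fit, with Benjamini-Hochberg adjustment over all tested genes and a threshold of 0.05. Each SE is the size of the log2 change divided by the root of F, and 95% intervals are 1.96 SE either side. A list's score is its mean log2 CPM (prior count 2). Library totals of 6115542 to 51577001 counts put 3 counts at 0.0582 to 0.491 CPM.

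The 9 members, 13 gene lists, tests and alternatives were chosen with earlier results of these data known. Named genes are the members, Ucp1 and Ppargc1a, up to 4 genes with the smallest p per list and comparison, cell type markers set beside a result, and the 5 genes closest to Alas1, Alas2 and Tfrc. Some genes that this rule allows are not reported here. Apex2 was added after its overlap with Alas2 was seen; some responses of listed genes are given at both ages where the rule names them at 1. Exon lengths and hairpins are from GENCODE M21 and promoters from RefSeq, both of GRCm38, not the build of the counts. The procedure was tested on simulated data.

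Alternatives were DESeq2 1.42.0, limma-voom (limma 3.58.1), upper-quartile or RLE factors, a stricter filter or none, a fit of the compared groups by themselves, a replicate block, each library left out, Old_CL 1, 2 and 4 summed, the 5 muscle-rich libraries left out, and the B cell, muscle, erythrocyte or adipocyte score as a covariate. The cell cycle and globin covariates and all alternatives for the Alas2 to Alas1 ratio were added after seeing the data.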

Additional observations from a re-analysis of the deposited data

Results flagged for a closer look

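In the 27 groups of 4 libraries formed by the 9 genes, 2 held a library far from the others by Dixon's test, which chance alone gives in about 1 in 20 groups. Alas1 was at 729 CPM in Old_CL 3, a muscle-rich library, and the next library of that group was at 548 CPM. Uros was at 22.5 CPM in Young_Ctrl 1, the young vehicle library with the highest adipocyte score, and the next was at 17.1 CPM. The response of Tfrc to CL differed between young and aged mice by -0.93 on the log2 scale (edgeR interaction, adjusted p = 0.0116).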

How the results depend on the processing

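Labels share replicate numbers across groups. Over 14 same-numbered pairs the correlation of deviations from the group means was -0.236 to 0.343, not every pair was above 0.1, and 3 correlated best with their own number, so the numbers were not taken to pair the samples. With the number as a replicate block the genes called for the interaction went from 1083 to 641, and the other counts of genes (6186, 6135, 3608 and 5594 for young CL, aged CL, age in vehicle tissue and age in CL tissue) and all counts of members stayed within 1.5 times. Counts of called genes are given below in that order of comparisons, with the interaction last; the cause of a shift was not tested.

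Without the 5 muscle-rich libraries, which leaves 1 Young_CL and 2 Old_Ctrl libraries, 2974 genes were called for young CL, 1869 by age in CL tissue and 203 for the interaction, with 0 members called there, and the aged CL difference of the Alas2 to Alas1 ratio was 0.053. Old_CL 1, 2 and 4 summed gave 3818 genes by age in CL tissue and 139 for the interaction, with 0 members. The vehicle groups alone gave 1877 genes and 1 member for age, and the CL groups alone 5 members. DESeq2 called 1871 genes and 2 members for the interaction. The B cell covariate gave 1790 genes for young CL, 20 genes and 0 members by age in vehicle tissue, and 2175 genes by age in CL tissue. The erythrocyte covariate gave 4025 genes for aged CL, 2285 genes and 1 member by age in vehicle tissue, and 2019 by age in CL tissue. The adipocyte covariate gave 3168 genes for young CL, 1835 and 4 members for aged CL, 1453 by age in vehicle tissue, 2595 by age in CL tissue, and 2414 and 3 members for the interaction. Of the covariates added after seeing the data, the cell cycle score gave 1192 genes and 3 members for aged CL, 364 and 0 by age in CL tissue, and 204 and 0 for the interaction. The globin score gave 1728 and 4 for aged CL, 1924 and 1 by age in vehicle tissue, 1159 genes by age in CL tissue and 590 for the interaction. Upper-quartile scaling moved the share of calls that were higher from 49.6% to 38.7% for young CL, and no scaling moved the median of all genes by over 0.1.

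With 1 library left out, the genes called ranged from 5418 to 7609, 5599 to 6245, 1739 to 5851, 4849 to 6063 and 431 to 2070, and the members called from 6 to 7, 7 to 7, 2 to 4, 2 to 3 and 1 to 3. The ratio differences ranged from -0.98 to -0.69, -0.70 to -0.06, 0.77 to 1.41 and 1.41 to 1.64. Signs changed within small values: from -0.049 to 0.23 for Tfrc in aged CL, from -0.11 to 0.11 for Uros and -0.10 to 0.11 for Cpox by age in vehicle tissue, and for the interaction from -0.10 to 0.14 for Alad, -0.053 to 0.16 for Cpox and -0.10 to 0.19 for Fech.

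Other log2 values that changed sign, each of a gene not called there except Fech by age in CL tissue, were as follows. Without the muscle-rich libraries they were Ppox 0.021 in young CL, Tfrc -0.043 in aged CL, Uros 0.073 by age in vehicle tissue, Alas1 -0.086 by age in CL tissue and Fech -0.12 for the interaction. With the B cell covariate they were Ppox 0.088 in young CL, Tfrc -0.041 in aged CL, Cpox -0.0102, Ppox 0.0115 and Fech -0.11 by age in vehicle tissue, and Alas1 -0.49 and Urod -0.071 by age in CL tissue. The adipocyte covariate gave Cpox 0.009 in aged CL, Alas1 -0.51, Urod -0.079 and Fech -0.084 by age in CL tissue, and Alad -0.11 and Fech -0.086 for the interaction. The erythrocyte covariate gave Uros 0.075 by age in vehicle tissue, Alas1 -0.10 by age in CL tissue and Alad -0.073 for the interaction. The cell cycle covariate gave Cpox 0.046 in aged CL, Alas1 -0.52, Urod -0.058, Ppox -0.036 and Fech -0.17 by age in CL tissue, and Alas1 -0.15, Alad -0.48 and Fech -0.39 for the interaction. The globin covariate gave Uros 0.052 by age in vehicle tissue, Alas1 -0.20 by age in CL tissue, and Alad -0.12 and Fech -0.053 for the interaction. The muscle covariate gave Cpox -0.023 for the interaction. Cpox by age in vehicle tissue was -0.0136, -0.0091, -0.0113, -0.0238 and -0.0235 with RLE factors, limma-voom, the replicate block, upper-quartile factors and DESeq2. Upper-quartile factors gave Tfrc -0.025 in aged CL. For the interaction Alad was -0.022 with limma-voom, -0.0034 with DESeq2 and -0.0015 with the replicate block. Outside the fits that leave out a library, 616 single-gene values kept their direction and side of the threshold, 16 passed and 36 failed it anew, and 43 changed sign. Counts of 37 to 222 per library limit Alas2 in Young_CL.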
